A study of Mus musculus with 16 samples.

Results

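The 37 genes described here encode the liver's machinery for making cholesterol and fatty acids and the factors that govern it. They were chosen by name, and their rows in the count table of the series were found through Ensembl identifiers. The sterol arm holds 20 genes and the fatty acid arm 17. All 37 were found among 55357 genes, and all 37 passed the filter on low counts, as did 14421 genes in all.

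RNA was sequenced from 16 mouse liver samples in 4 groups of 4, to compare livers with altered Terc, which encodes the RNA of telomerase and a small protein called TERP, with wild-type livers. AUG livers carry the genotype labelled mTERC CUG/AUG, a name that may mean a codon change or 2 different alleles and is left as it is. The del7 livers carry a Terc that lacks 7 nucleotides, at positions 29 to 35 of the RNA. Each mutant has wild types named for its own line, AUG_WT and del7_WT, no group was treated, and all mice had free access to food. Strain, age and sex are not given in the sources used here. Terc itself is not analysed here, so the genotypes were not checked against its reads. Nothing in the labels says that the 4 samples of a group came from 4 animals. The p-values therefore rest on the spread between samples, part of which may be technical.

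Cholesterol is built from acetyl-CoA through mevalonate, squalene and lanosterol. The transcription factor encoded by Srebf2 switches on the enzymes of this route when sterol in the membrane of the endoplasmic reticulum runs low, and INSIG proteins hold it there when sterol is plentiful. Fatty acids are built from the same acetyl-CoA, mainly after meals, under the insulin-responsive product of Srebf1 and the sugar-responsive product of Mlxipl. The factors from both Srebf genes bind sterol regulatory elements and work with neighbouring factors, among them NF-Y, which recognises the letters CCAAT, and Sp1, which recognises GGGCGG.

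Promoter sequences from 250 bases before to 50 bases after annotated gene starts were available for 16 sterol and 15 fatty acid genes (RefSeq, build GRCm38.p6). Read on either strand, CCAAT was present in 16 of 16 sterol promoters and in 12 of 15 fatty acid promoters (80%), against 41.1% of 27025 genes in the same table. GGGCGG was present in 15 of 16 (93.8%), in 8 of 15 (53.3%) and in 38.2% of all genes. At least 2 CCAAT boxes were found in 9 of 16 sterol genes (56.2%), 3 of 15 fatty acid genes (20%) and 13.3% of all genes. The upstream box nearest to the start lay a median of 46 bases upstream in the 16 sterol genes and 74 bases in the 11 fatty acid genes with a box upstream. Hmgcs1 and Nsdhl also hold a box just after the start. The strict core of the sterol regulatory element, TCACNCCAC, was found in Hmgcs1 alone of the sterol arm and in Mlxipl alone of the fatty acid arm, beside 1.44% of all genes. CACGTG, the E-box core, which is also part of the carbohydrate response element, was found in 4 of 16, 2 of 15 and 8.09%. These are matches of letters, not measured binding.

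The stretches below carry the upstream CCAAT box nearest to the start, for sterol genes whose values by library are described further on. They are written 5′ to 3′ on the strand of the gene, with the box in capitals, ATTGG where the box lies on the opposite strand. They cover chr15:82147109-82147163 (plus strand) for Srebf2, chr5:28071171-28071225 (plus strand) for Insig1 and chr13:119690281-119690335 (plus strand) for Hmgcs1. The others cover chr8:122443423-122443474 (minus strand) for Mvd, chr13:8885567-8885605 (plus strand) for Idi1, chr10:76531518-76531572 (plus strand) for Lss and chr9:42264301-42264349 (minus strand) for Sc5d.
Srebf2: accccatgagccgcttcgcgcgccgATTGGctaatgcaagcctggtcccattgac
Insig1: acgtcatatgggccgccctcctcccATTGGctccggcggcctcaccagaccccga
Hmgcs1: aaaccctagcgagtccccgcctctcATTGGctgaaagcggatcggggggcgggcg
Mvd: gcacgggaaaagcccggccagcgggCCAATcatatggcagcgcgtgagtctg
Idi1: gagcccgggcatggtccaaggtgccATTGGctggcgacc
Lss: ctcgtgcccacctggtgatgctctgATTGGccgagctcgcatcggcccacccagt
Sc5d: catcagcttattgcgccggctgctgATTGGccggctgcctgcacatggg

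Fatty acid genes are shown in the same way, for comparison of the box and its surroundings. They cover chr11:60210472-60210526 (minus strand) for Srebf1, chr11:120824577-120824631 (minus strand) for Fasn and chr7:97417573-97417627 (minus strand) for Thrsp. The remaining stretches cover chr15:84167692-84167746 (plus strand) for Pnpla3 and chr5:135089692-135089746 (plus strand) for Mlxipl.
Srebf1: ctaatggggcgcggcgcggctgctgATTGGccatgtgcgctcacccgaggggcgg
Fasn: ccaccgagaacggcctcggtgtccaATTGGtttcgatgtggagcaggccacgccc
Thrsp: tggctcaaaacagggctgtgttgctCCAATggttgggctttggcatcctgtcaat
Pnpla3: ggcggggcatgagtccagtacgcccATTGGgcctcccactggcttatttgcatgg
Mlxipl: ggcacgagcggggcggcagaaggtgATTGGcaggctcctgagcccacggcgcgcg

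Both matches to TCACNCCAC are shown with the match in capitals, since Hmgcs1 spans the widest range of the sterol arm. The Hmgcs1 stretch covers chr13:119690174-119690262 (plus strand), with the match 137 to 129 bases before the start. The Mlxipl stretch covers chr5:135106715-135106803 (plus strand) at another annotated start of the gene, with the match 136 to 128 bases before it.
Hmgcs1 element: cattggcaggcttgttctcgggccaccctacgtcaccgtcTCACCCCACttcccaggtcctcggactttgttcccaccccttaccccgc
Mlxipl element: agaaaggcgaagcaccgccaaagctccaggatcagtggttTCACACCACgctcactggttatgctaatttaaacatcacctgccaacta

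Total gene counts ran from 7714058 to 14629022 per library, and each member had at least 36 counts in every library. Values are given as counts scaled to a TMM-adjusted library size of 1e6 (CPM), in the order of replicates 1 to 4. Sums over cell markers, here and below, are the exception: they use the library size without the TMM factor, which ran from 0.877 to 1.36. The 10 hepatocyte markers summed to 94600 to 143000 CPM in 15 libraries and to 62200 CPM in AUG_WT replicate 1. That library, with the highest TMM factor, stood apart from the rest. Its coordinate on the first principal component was 126, and that of the other 15 was 10.7 at most. Relative to the mean of all libraries on the log2 scale, its B and plasma cell markers were at 4.12, its T and natural killer cell markers at 3.31 and its cell cycle genes at 4.18. Results that rest on it are given with and without it. In bulk tissue, fewer cells of a type and less RNA per cell cannot be told apart.

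Per kilobase of exon, the levels of the arms overlapped, but the fatty acid arm stood higher. By level, its middle gene was Gpam at 62.7 CPM per kilobase. The middle pair of the sterol arm was Tm7sf2 at 26.9 and Fdft1 at 25.1. Far above all others was Scd1, the enzyme that puts the double bond into stearate. Scd1 stood at 1620.0 CPM per kilobase over all 16 libraries, and Fads2, the next gene, at 187. Without AUG_WT replicate 2 Fads2 stood at 149.6, below Elovl5 at 177.6 and Sc5d at 160.8, so its place rests on that library. In the sterol arm Sc5d, which introduces a double bond late in the pathway, was the highest at 162 CPM per kilobase. It was followed by Hmgcs1 at 132 and Insig1 at 126, and Fdps was the lowest at 5.40. Pnpla3, a lipase-like protein of lipid droplets, was the lowest of the fatty acid arm at 7.74. The length used covers all annotated exons of a gene together, whichever transcripts the liver makes. Reads lost to near-identical copies or overlapping genes, named below, can also lower a level, so these ranks are approximate.

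No member of either arm passed the test in any comparison of genotypes. By edgeR's quasi-likelihood test over all genes (Benjamini-Hochberg adjusted p under 0.05), 0 of 37 members were called in AUG against AUG_WT, beside 0.0277% of all tested genes (4 genes). The count was 0 of 37 in del7 against del7_WT, beside 0% of all genes, 0 of 37 for the difference between the mutant effects, beside 0.00693%, and 0 of 37 between the wild-type groups, beside 0.0347%. DESeq2 and limma voom also called 0 members in each. At an unadjusted p under 0.05 the members numbered 0 in all 4 comparisons, where 8.81%, 1.92%, 5.21% and 11.8% of all genes passed. A miss of the threshold does not show equal levels, so the intervals below say how large a change the data leave possible.

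What did vary was the level of each arm from library to library, and the arms did not always go together. An arm's level is the mean of its genes' log2 CPM, each taken relative to the gene's own mean over the 16 libraries. In AUG the sterol level was -0.23, 0.62, -0.56 and -0.25 in replicates 1 to 4, while the fatty acid level was 0.19, 0.04, -0.03 and -0.02. Replicate 2 was thus high in the sterol arm only, and the fatty acid level of this group stayed within a narrow band. In AUG_WT the sterol level was -0.54, 0.14, 0.20 and -0.09 and the fatty acid level -0.92, 0.31, 0.66 and -0.07. Replicate 1 was the lowest of the group in both arms, and replicate 3 was the highest of all 16 libraries in the fatty acid arm but only the fifth in the sterol arm.

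In del7 the sterol level was 0.11, 0.48, -0.27 and 0.12 and the fatty acid level -0.10, 0.40, -0.33 and -0.24. Here replicate 2 was high and replicate 3 low in both arms. In del7_WT the sterol level was -0.23, 0.29, -0.12 and 0.32 and the fatty acid level -0.14, -0.12, -0.10 and 0.47. Replicate 4 was high in both arms, replicate 2 in the sterol arm only. The groups overlapped in both arms. The mean level of 13 clock genes, on the same scale, was -0.14, 0.13, 0.05 and 0.36 in AUG. It was -0.13, -0.10, 0.19 and 0.32 in AUG_WT, -0.29, -0.32, 0.34 and -0.24 in del7, and 0.19, 0.10, -0.09 and -0.38 in del7_WT. Dbp ran from 10.04 CPM in del7 replicate 1 to 171.9 CPM in AUG replicate 4, and Arntl from 27.42 to 2.71 CPM in the same libraries. The part of these genes in the arm levels was not tested.

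**Figure D1:**
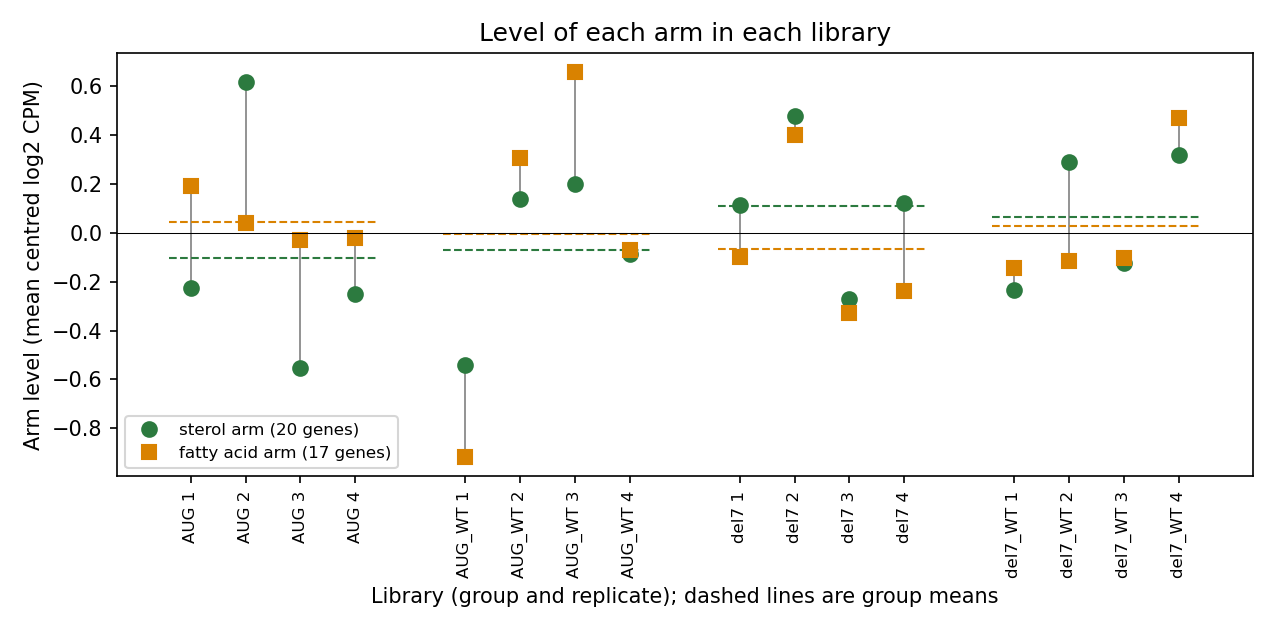
Level of the sterol arm (circles, 20 genes) and the fatty acid arm (squares, 17 genes) in each of the 16 libraries, as mean centred log2 CPM, with dashed lines at the group means. AUG replicate 2 sits at 0.62 in the sterol arm and 0.04 in the fatty acid arm, whereas AUG_WT replicate 3 sits at 0.20 and 0.66.

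As group means, the sterol arm stood at -0.10 ± 0.50 in AUG, -0.07 ± 0.34 in AUG_WT, 0.11 ± 0.31 in del7 and 0.06 ± 0.28 in del7_WT (log2 scale, SD, n = 4). The fatty acid arm stood at 0.04 ± 0.10, -0.01 ± 0.68, -0.07 ± 0.33 and 0.03 ± 0.30 in the same order. The sterol level minus the fatty acid level was -0.15 ± 0.50 in AUG, -0.07 ± 0.35 in AUG_WT, 0.18 ± 0.14 in del7 and 0.04 ± 0.25 in del7_WT. With all libraries, every pair of group means lay closer together than the larger SD of the pair. Without AUG_WT replicate 1 the AUG_WT means were 0.08 ± 0.15 for the sterol arm, 0.30 ± 0.36 for the fatty acid arm and -0.21 ± 0.22 for the sterol minus the fatty acid level (SD, n = 3). The last of these then lay 0.39 from the del7 mean, beyond the larger SD of 0.22, and the fatty acid mean lay 0.365 from that of del7, about its SD of 0.364. Within groups, the median SD of a gene was 0.43 in the sterol arm and 0.59 in the fatty acid arm on the log2 scale. It was 0.31 over all tested genes and 0.23 over the 8334 with a mean of at least 10 CPM. Without AUG_WT replicate 1 these medians were 0.39, 0.50, 0.25 and 0.18.

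**Figure D2:**
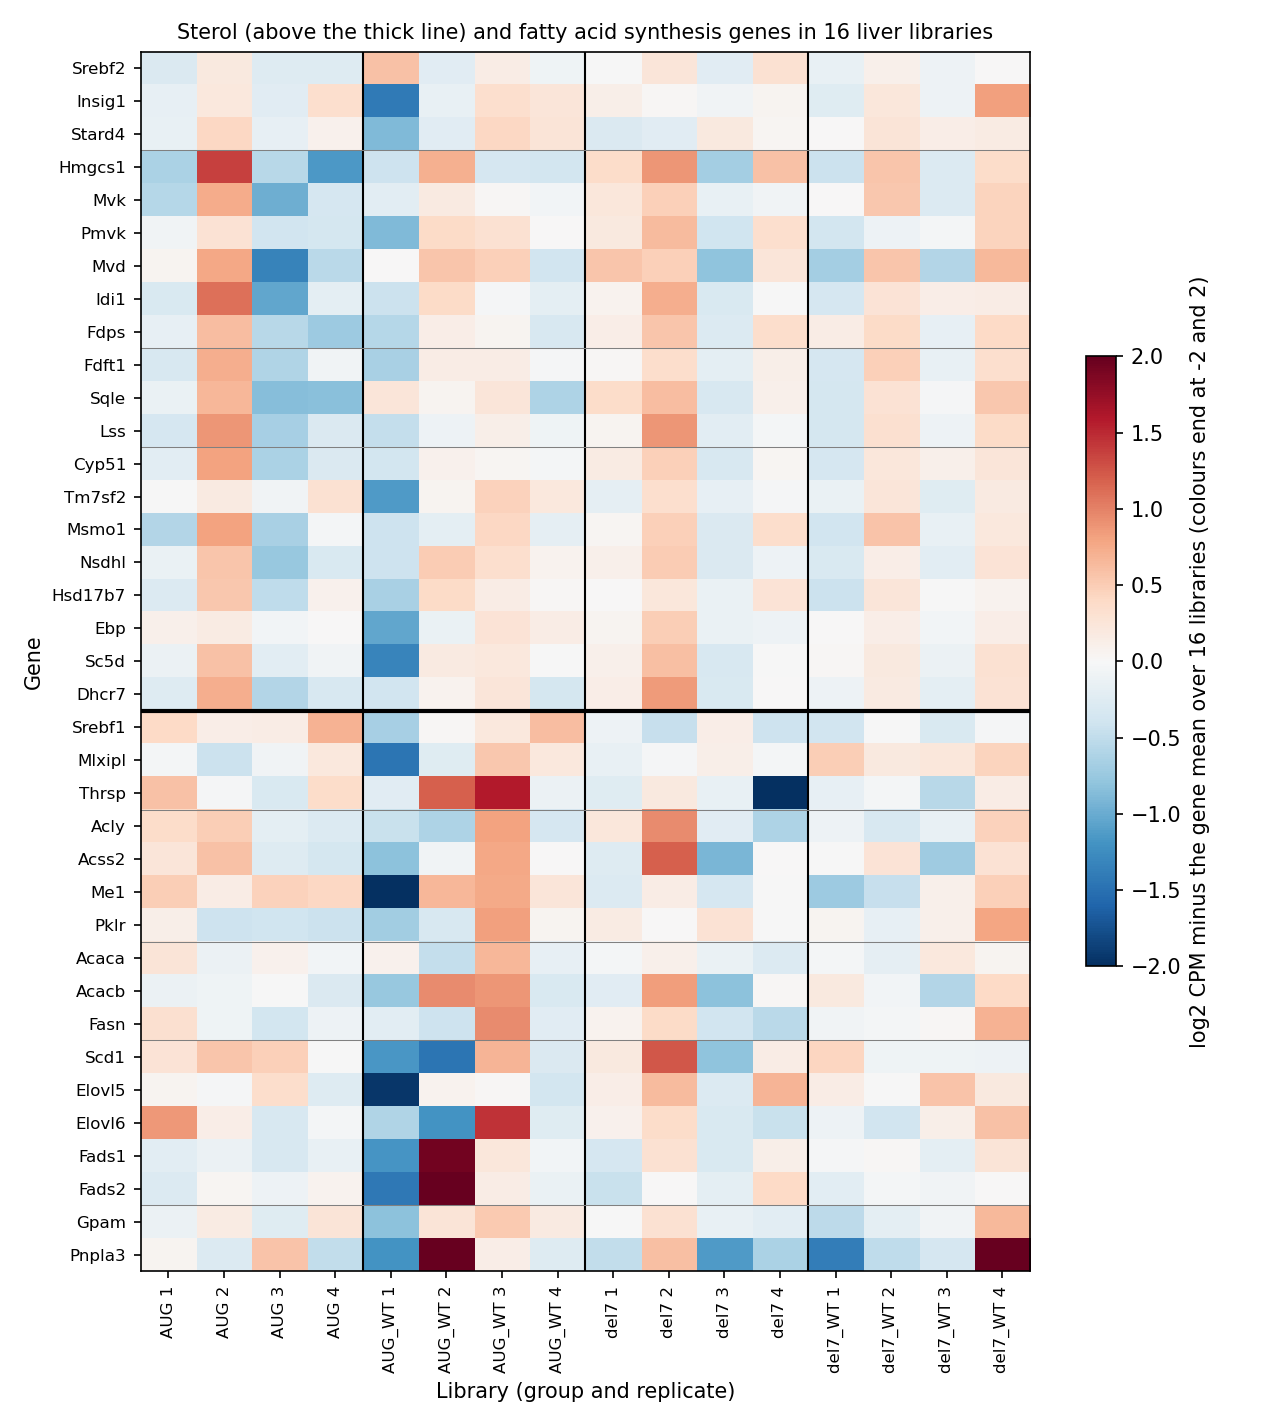
Centred log2 CPM of the 37 genes (rows, ordered by role, sterol arm above the thick line) in 16 libraries (columns, grouped by genotype), with colours ending at -2 and 2. AUG replicate 2 is a column of high sterol genes above a pale fatty acid block, and AUG_WT replicate 1 is low in most genes of both arms.

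AUG replicate 2 was the highest of its group in 18 of 20 sterol genes, at a median of 2.09 times the mean of the other 3 libraries. It was the highest in 4 of 17 fatty acid genes, at a median of 0.943 times. By role, the 6 mevalonate genes stood at 0.82 in this library, the squalene to lanosterol genes at 0.76, the lanosterol to cholesterol genes at 0.55 and the control genes Srebf2, Insig1 and Stard4 at 0.27 (centred log2 scale). AUG replicate 3 was the lowest in 17 of 20 sterol genes, with the mevalonate genes at -0.81. AUG replicate 2 also had the highest level of Kupffer cell markers in its group (0.83, where the others had -0.47 to 0.33), of neutrophil markers (1.23) and of T and natural killer cell markers (1.12). Their part in the sterol values was not tested.

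In the other groups the pattern was less one-sided. The del7 replicate 2 library was the highest of its group in 15 of 20 sterol and 12 of 17 fatty acid genes, and replicate 3 the lowest in 18 of 20 and 6 of 17. Neutrophil markers stood at 1.12 and erythroid markers at 1.87 in del7 replicate 2, and their part was not tested. AUG_WT replicate 3 was the highest of its group in 11 of 17 fatty acid genes at a median of 1.78 times the mean of the others, and in 9 of 20 sterol genes. AUG_WT replicate 1 was the lowest in 17 of 20 sterol and 12 of 17 fatty acid genes. Its hepatocyte markers stood at -1.07 and its fed and fasted state genes at -1.48, and their part was not tested.

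Srebf2 (ENSMUSG00000022463.9), the sterol-responsive factor itself, had the narrowest range of all 37 members. Its level was 81.9, 114, 83.6 and 84.1 CPM in AUG, 151, 85.6, 111 and 94.2 in AUG_WT, 99.9, 118, 85.8 and 124 in del7, and 90.4, 108, 93.5 and 101 in del7_WT. The highest value was that of AUG_WT replicate 1, where 17 of 20 sterol genes were the lowest of the group, and the whole range was 1.84-fold. Srebf2 gave a log2 fold change of -0.28 (SE 0.17, 95% interval -0.65 to 0.09, edgeR adjusted p = 0.658) in AUG and 0.12 (SE 0.17, 95% interval -0.25 to 0.49, edgeR adjusted p = 1) in del7. Without AUG replicate 2 the AUG value was -0.41 (SE 0.18, unadjusted p = 0.0374, edgeR adjusted p = 0.58), and without AUG_WT replicate 1 it was -0.07 (SE 0.15, unadjusted p = 0.637, edgeR adjusted p = 0.953).

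Insig1 (ENSMUSG00000045294.12), whose product retains the Srebf factors in the endoplasmic reticulum and which is itself one of their targets, stood at 334, 434, 321 and 472 CPM in AUG, 140.1, 338, 473 and 445 in AUG_WT, 408, 383, 357 and 389 in del7, and 316, 441, 349 and 659 in del7_WT. AUG_WT replicate 1 was the low library and del7_WT replicate 4 the high one, and the mutant values lay inside the range of the wild types. Its log2 fold change was 0.16 (SE 0.30, 95% interval -0.49 to 0.81, edgeR adjusted p = 0.894) in AUG and -0.20 (SE 0.30, 95% interval -0.85 to 0.45, edgeR adjusted p = 1) in del7. Without AUG_WT replicate 1 the AUG value was -0.08, so its direction rests on that library. Stard4 (ENSMUSG00000024378.10), a carrier that moves sterol between membranes, stood at 171, 252, 168 and 200.3 CPM in AUG, 102, 161, 253 and 225 in AUG_WT, 154, 161, 217 and 195 in del7, and 189, 227, 207 and 212 in del7_WT. Again AUG_WT replicate 1 was the lowest, and del7 and del7_WT overlapped. Stard4 gave -0.20 (SE 0.23, 95% interval -0.68 to 0.28, edgeR adjusted p = 1) in del7 and 0.10 in AUG, where it was -0.09 without AUG_WT replicate 1.

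Hmgcs1 (ENSMUSG00000093930.3), the synthase that feeds the mevalonate route, had the widest range of the sterol arm, 5.70-fold. It stood at 349, 1397, 371 and 245 CPM in AUG, 406, 888, 431 and 423 in AUG_WT, 698, 1002, 341 and 812 in del7, and 403, 799.8, 449 and 704 in del7_WT. AUG replicate 2 alone held more than the other AUG libraries together, AUG_WT replicate 2 was above the rest of its group, and del7 replicate 3 was the low library of del7. Against this spread the means were 591 ± 541 CPM (SD, n = 4) in AUG, 537 ± 234 CPM (SD, n = 4) in AUG_WT, 713 ± 278 CPM (SD, n = 4) in del7 and 589 ± 193 CPM (SD, n = 4) in del7_WT. Hmgcs1 gave a log2 fold change of 0.14 (SE 0.49, 95% interval -0.91 to 1.18, edgeR adjusted p = 0.953) in AUG and 0.28 (SE 0.49, 95% interval -0.77 to 1.32, edgeR adjusted p = 1) in del7, intervals that leave changes of about 2-fold possible in either direction. Without AUG replicate 2 the AUG value turned to -0.74 (SE 0.38, unadjusted p = 0.0709, edgeR adjusted p = 0.602), so its direction rests on that library.

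Mvd (ENSMUSG00000006517.6), the decarboxylase that makes isopentenyl diphosphate, stood at 29.4, 48.7, 11.04 and 19.3 CPM in AUG, 28.6, 41.6, 39.2 and 21.6 in AUG_WT, 41.6, 39.3, 16.0 and 33.5 in del7, and 17.7, 41.4, 18.7 and 44.5 in del7_WT. AUG replicates 2 and 3 were the highest and the lowest of all 16, so that group alone spans the gene's 4.41-fold range. Mvd gave -0.27 (SE 0.43, 95% interval -1.18 to 0.64, edgeR adjusted p = 0.869) in AUG and 0.09 in del7, and the AUG value ran from -0.71 without AUG replicate 2 to -0.01 without AUG replicate 3. Idi1 (ENSMUSG00000058258.15), the isomerase of the next step, stood at 22.2, 59.5, 13.3 and 24.02 CPM in AUG, 20.5, 36.2, 27.0 and 24.1 in AUG_WT, 29.2, 45.7, 22.4 and 27.5 in del7, and 21.9, 33.5, 30.2 and 30.5 in del7_WT. AUG replicates 2 and 3 were once more the extremes, and the wild types of both lines lay between them. Its log2 fold change was 0.14 (SE 0.36, 95% interval -0.62 to 0.90, edgeR adjusted p = 0.927) in AUG and 0.11 in del7, and -0.44 in AUG without AUG replicate 2 (SE 0.27, unadjusted p = 0.126, edgeR adjusted p = 0.648). Idi1 matches the pseudogene Gm13502 over 684 nucleotides with 0 mismatches, so reads can be lost to the copy and its values are uncertain.

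Pmvk (ENSMUSG00000027952.17), a kinase of the same route, stood at 47.5, 61.0, 38.3 and 38.9 CPM in AUG, 27.0, 65.5, 61.7 and 50.4 in AUG_WT, 57.2, 77.3, 37.9 and 63.3 in del7, and 38.8, 46.6, 48.5 and 68.4 in del7_WT. The del7 and del7_WT values interleaved, and AUG_WT replicate 1 was the lowest of all. Pmvk gave 0.22 (SE 0.27, 95% interval -0.36 to 0.80, edgeR adjusted p = 1) in del7 and -0.14 in AUG. The other mevalonate genes were Mvk, the first kinase, at 11.4 to 38.1 CPM, and Fdps, the farnesyl diphosphate synthase, at 13.1 to 33.7 CPM. Mvk gave a log2 fold change of -0.12 in AUG and -0.07 in del7, and Fdps 0.04 and 0.01. Without AUG replicate 2, Mvk stood at -0.60 in AUG (SE 0.22, unadjusted p = 0.0162, edgeR adjusted p = 0.576).

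The squalene genes followed the mevalonate genes across the AUG libraries. Fdft1, the squalene synthase, ranged over 65.9 to 171 CPM, Sqle, the squalene epoxidase, over 58.0 to 167 CPM, and Lss, which closes the sterol ring, over 65.0 to 191 CPM. All 3 were at their group's highest in AUG replicate 2. Their log2 fold changes ran from -0.17 to 0.16 in AUG and from -0.03 to 0.14 in del7. In AUG they turned or grew to -0.25 for Fdft1, -0.58 for Sqle and -0.29 for Lss without AUG replicate 2. Fdft1 shares 97.4% of 1249 aligned nucleotides with the pseudogene Gm6781, which makes its values uncertain.

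The late steps from lanosterol to cholesterol comprise 8 members. Sc5d (ENSMUSG00000032018.15), the desaturase named above, stood at 696, 1137, 655 and 720.1 CPM in AUG, 304, 858, 880.5 and 752 in AUG_WT, 810.5, 1149.5, 609 and 753 in del7, and 769, 871, 698 and 935 in del7_WT. AUG replicate 2 and del7 replicate 2 were the high libraries and AUG_WT replicate 1 the low one. The log2 fold change of Sc5d was 0.20 (SE 0.29, 95% interval -0.43 to 0.82, edgeR adjusted p = 0.86) in AUG and 0.02 in del7, and the AUG value was -0.03 without AUG_WT replicate 1 and -0.01 without AUG replicate 2. Cyp51, the lanosterol demethylase, ranged over 124 to 336 CPM, and Msmo1, which oxidises the methyl groups, over 105 to 289 CPM. Dhcr7, the reductase of a final step, ranged over 73.2 to 199 CPM, and the isomerase Ebp over 74.2 to 215 CPM.

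Nsdhl, the dehydrogenase that removes a carboxyl group, ranged over 45.3 to 112 CPM, Hsd17b7, a ketosteroid reductase, over 65.9 to 150.2 CPM, and Tm7sf2, a sterol reductase, over 52.3 to 159 CPM. Over the 8 genes the log2 fold changes ran from -0.25 to 0.20 in AUG, with 6 above 0, and from -0.02 to 0.18 in del7, with 7 above 0. In AUG without AUG replicate 2, Cyp51 stood at -0.30, Msmo1 at -0.33 and Dhcr7 at -0.30, each turned from a value above 0. Nsdhl was the lowest in AUG. Without AUG replicate 2 it stood at -0.53 (SE 0.24, unadjusted p = 0.0448, edgeR adjusted p = 0.583). Tm7sf2 overlaps Vps51 and Fdps overlaps Gm43738 on the same strand, and Msmo1 shares stretches of about 200 nucleotides with other transcripts. Reads of these genes may therefore be lost from the counts.

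In the fatty acid arm, Srebf1 (ENSMUSG00000020538.16), the insulin-responsive factor, stood at 393, 327, 329 and 481 CPM in AUG, 188, 302, 343 and 454 in AUG_WT, 278, 216, 327 and 224 in del7, and 228, 295, 239.7 and 293 in del7_WT. The AUG line was somewhat higher than the del7 line in both mutant and wild type, with overlap, and AUG_WT replicate 1 was the lowest value. Srebf1 gave 0.25 (SE 0.23, 95% interval -0.23 to 0.73, edgeR adjusted p = 0.757) in AUG and -0.02 (SE 0.23, 95% interval -0.50 to 0.47, edgeR adjusted p = 1) in del7. Between the wild types it was 0.28, and 0.45 without AUG_WT replicate 1 (SE 0.19, unadjusted p = 0.0284, edgeR adjusted p = 0.57). Srebf1 overlaps Mir6922 on the same strand.

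Mlxipl (ENSMUSG00000005373.14), the sugar-responsive factor, was the one member whose groups did not overlap. It stood at 287, 219.7, 283 and 342 CPM in AUG, 107, 251, 428 and 343 in AUG_WT, 267, 291, 321 and 286 in del7, and 414, 339.9, 344 and 402 in del7_WT. All 4 del7 libraries lay below all 4 del7_WT libraries. That makes 1 of 37 members in del7 against del7_WT, beside 4.01% of all genes, and 0 of 37 in AUG against AUG_WT, beside 2.05%, and between the wild types, beside 3.53%. Kupffer cell markers also differed between these groups, with 7 of 7 higher in del7 by a median log2 fold change of 0.88. Of these markers 6 were at an unadjusted p under 0.05, beside 1.92% of all genes, and 0 were called by edgeR. Their summed level was 346 to 541 CPM in del7 and 192 to 317 CPM in del7_WT. The same 7 markers were also higher in AUG_WT than in del7_WT, by a median log2 fold change of 0.69. In del7 against del7_WT, 3 of 3 tested neutrophil markers (median 1.49) and 5 of 5 tested erythroid markers (median 0.93) were higher too. Of 10 hepatocyte markers 3 were higher. The part of these cell types in the Mlxipl values was not tested. The log2 fold change of Mlxipl in del7 was -0.36 (SE 0.29, 95% interval -0.97 to 0.24, edgeR adjusted p = 1), and without AUG_WT replicate 1, which enters through the shared estimate of the spread, it was -0.37 (SE 0.16, unadjusted p = 0.0307, edgeR adjusted p = 0.884). In AUG it was 0.00, and -0.25 without AUG_WT replicate 1. The difference between the mutant effects was 0.37 (SE 0.41, 95% interval -0.49 to 1.23, edgeR adjusted p = 0.903). Pklr, the liver pyruvate kinase and a classical target of the Mlxipl product, ranged over 161 to 463 CPM and gave -0.12 in del7 and -0.34 in AUG.

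Thrsp (ENSMUSG00000035686.9), a small nuclear protein that rises with lipogenesis, stood at 224, 147, 121 and 194 CPM in AUG, 128, 342, 449.5 and 138 in AUG_WT, 127, 172, 136 and 30.9 in del7, and 133, 146, 102 and 167 in del7_WT. Its 14.6-fold range came from AUG_WT replicates 2 and 3 at the top and del7 replicate 4 at the bottom. Thrsp gave -0.62 (SE 0.45, 95% interval -1.59 to 0.34, edgeR adjusted p = 0.703) in AUG and -0.24 in del7. Between the wild types it gave 0.95 (SE 0.46, 95% interval -0.02 to 1.92, edgeR adjusted p = 0.436), the smallest unadjusted p of any member in that comparison at 0.055. Without AUG_WT replicate 1 this value was 1.15 (SE 0.44, unadjusted p = 0.0201, edgeR adjusted p = 0.518).

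Acss2, Me1 and Acly supply acetyl-CoA or reducing power. Their SDs within groups were 0.64, 0.74 and 0.53 on the log2 scale, beside 0.77 for Thrsp. Acss2 (ENSMUSG00000027605.19), which makes acetyl-CoA from acetate, stood at 378, 481, 267 and 252 CPM in AUG, 182, 307, 549.98 and 322 in AUG_WT, 269, 737, 170.2 and 321 in del7, and 318, 389.7, 197 and 392.5 in del7_WT. The del7 group alone covered its 4.33-fold range, from replicate 3 to replicate 2. Acss2 gave 0.21 (SE 0.41, 95% interval -0.67 to 1.08, edgeR adjusted p = 1) in del7, and -0.35 without del7 replicate 2. In AUG it gave 0.02. Me1 (ENSMUSG00000032418.16), the malic enzyme that makes NADPH, stood at 146, 115, 143 and 138 CPM in AUG, 24.1, 165, 177 and 123 in AUG_WT, 85.6, 116, 82.1 and 103 in del7, and 63.0, 75.6, 111 and 145 in del7_WT. AUG_WT replicate 1 was far below every other library, and without it the range was 2.80-fold in place of 7.31-fold. Me1 gave 0.15 in AUG, -0.17 there without AUG_WT replicate 1, and -0.03 in del7. Its pseudogene Gm7049 matches it at 98.5% over 1638 nucleotides, which makes the values uncertain. Acly, which splits citrate, ranged over 279 to 823 CPM and gave 0.16 and 0.19.

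No gene of the chain itself was called between groups. Fasn, the fatty acid synthase, ranged over 994 to 2779 CPM, with AUG_WT replicate 3 (2779 CPM) and del7_WT replicate 4 (2320.4 CPM) above all others. Acaca, the cytosolic carboxylase that makes malonyl-CoA, ranged over 115 to 253 CPM, and Acacb, its mitochondrial relative, over 141 to 479 CPM. Their log2 fold changes ran from -0.49 to -0.04 in AUG and from -0.26 to 0.05 in del7. Acaca matches the pseudogene Gm5182 at 99.2% over 6118 nucleotides, so its values are uncertain.

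Scd1 (ENSMUSG00000037071.4) stood at 8713, 10498, 9968 and 7184 CPM in AUG, 3208, 2610.1, 11496 and 5897 in AUG_WT, 8214, 17065, 4119 and 7962 in del7, and 9649, 6781, 6744 and 6690.5 in del7_WT. The AUG libraries were all above 3 of the 4 AUG_WT libraries, but AUG_WT replicate 3 exceeded every AUG value. The log2 fold change of Scd1 was 0.65 (SE 0.45, 95% interval -0.31 to 1.61, edgeR adjusted p = 0.686) in AUG and 0.32 (SE 0.45, 95% interval -0.63 to 1.28, edgeR adjusted p = 1) in del7, the latter -0.14 without del7 replicate 2. Elovl5 (ENSMUSG00000032349.14), which lengthens polyunsaturated chains, stood at 607, 579, 747 and 489 CPM in AUG, 153, 613, 597 and 457 in AUG_WT, 646, 913, 487 and 939 in del7, and 648, 583, 871 and 669 in del7_WT. AUG_WT replicate 1 was again the low library, and its absence reduces the range from 6.16-fold to 2.06-fold. Elovl5 gave 0.41 (SE 0.33, 95% interval -0.30 to 1.13, edgeR adjusted p = 0.73) in AUG and 0.11 in del7. Elovl6 (ENSMUSG00000041220.11), which lengthens palmitate, stood at 325, 196, 142 and 174 CPM in AUG, 118, 77.9, 487 and 151 in AUG_WT, 189, 230.1, 144 and 131 in del7, and 165, 137, 192 and 267 in del7_WT. AUG_WT replicates 2 and 3 were the lowest and the highest of all 16, and the log2 fold change was 0.01 in AUG and -0.14 in del7, with 0.87 in AUG without AUG_WT replicate 3. Elovl6 has a pseudogene copy, Gm11295, at 97.4% over 805 nucleotides, so its values are uncertain.

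Fads1 (ENSMUSG00000010663.6) and Fads2 (ENSMUSG00000024665.9) encode the desaturases that make polyunsaturated fatty acids. Fads1 stood at 537, 573, 499 and 560.4 CPM in AUG, 276, 2380.1, 729 and 596 in AUG_WT, 494, 770.4, 504 and 674 in del7, and 614, 628, 543 and 743 in del7_WT. Fads2 stood at 436, 544, 494 and 555 CPM in AUG, 196, 2465, 589 and 481 in AUG_WT, 388, 535, 461 and 699.7 in del7, and 459, 515, 505 and 534 in del7_WT. In both genes AUG_WT replicate 2 was several times every other library and AUG_WT replicate 1 was the lowest, while the AUG, del7 and del7_WT libraries kept to a narrow band. Fads1 gave -0.88 (SE 0.44, 95% interval -1.82 to 0.07, edgeR adjusted p = 0.594) in AUG, with an unadjusted p of 0.0663 that was the smallest of any member in either mutant. Fads2 gave -0.88 (SE 0.51, 95% interval -1.97 to 0.21, edgeR adjusted p = 0.635). Leaving out AUG_WT replicate 1 took Fads1 to -1.16 (SE 0.34, edgeR adjusted p = 0.688) and Fads2 to -1.19 (SE 0.40, edgeR adjusted p = 0.764), with unadjusted p-values of 0.00415 and 0.00949. Leaving out AUG_WT replicate 2 instead turned Fads2 to 0.27 and Fads1 to 0.03, so both directions rest on a single wild-type library. In del7 their log2 fold changes were -0.05 and 0.05.

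AUG_WT replicate 2 split the fatty acid arm. It was the highest of its group in 5 of 17 genes, Fads1, Fads2, Pnpla3, Elovl5 and Acacb (479 CPM), and the lowest in 5 others, Scd1, Elovl6, Acly, Fasn and Acaca (115 CPM). Its elongation and desaturation genes averaged 0.31 and its chain genes 0.02 on the centred log2 scale, averages that hide these opposite values. The library lay at -53.0 on the second principal component, where the others lay at -18.8 or above. The part of that separation in the values of these genes was not tested.

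Pnpla3 (ENSMUSG00000041653.6) varied more within groups than 98.5% of all tested genes. It stood at 8.09, 6.42, 11.6 and 5.51 CPM in AUG, 3.30, 51.5, 8.52 and 6.47 in AUG_WT, 5.45, 11.9, 3.46 and 4.98 in del7, and 2.87, 5.39, 6.10 and 50.2 in del7_WT. AUG_WT replicate 2 and del7_WT replicate 4, both wild type, held about 50 CPM and all other libraries under 12 CPM. The fitted log2 fold change of Pnpla3 was -1.14 (SE 0.89, 95% interval -3.03 to 0.75, edgeR adjusted p = 0.724) in AUG and -1.32 (SE 0.90, 95% interval -3.23 to 0.59, edgeR adjusted p = 1) in del7. Without AUG_WT replicate 2 the AUG value turned to 0.39, and without del7_WT replicate 4 the del7 value turned to 0.45. The 7 adipocyte markers, from another lipid-making cell type, summed to 2.64 CPM in del7_WT replicate 4, with Lep at 0, and to 0.383 CPM or less in the other 15 libraries, AUG_WT replicate 2 among them at 0.0829 CPM. Fed and fasted state genes stood at 0.19 in AUG_WT replicate 2 and 0.11 in del7_WT replicate 4 on the centred log2 scale. Their part was not tested. Pnpla3 overlaps Gm49513 on the same strand. Gpam, the acyltransferase that starts glycerolipid synthesis, ranged over 231 to 633 CPM and gave -0.08 and -0.03.

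**Figure D3:**
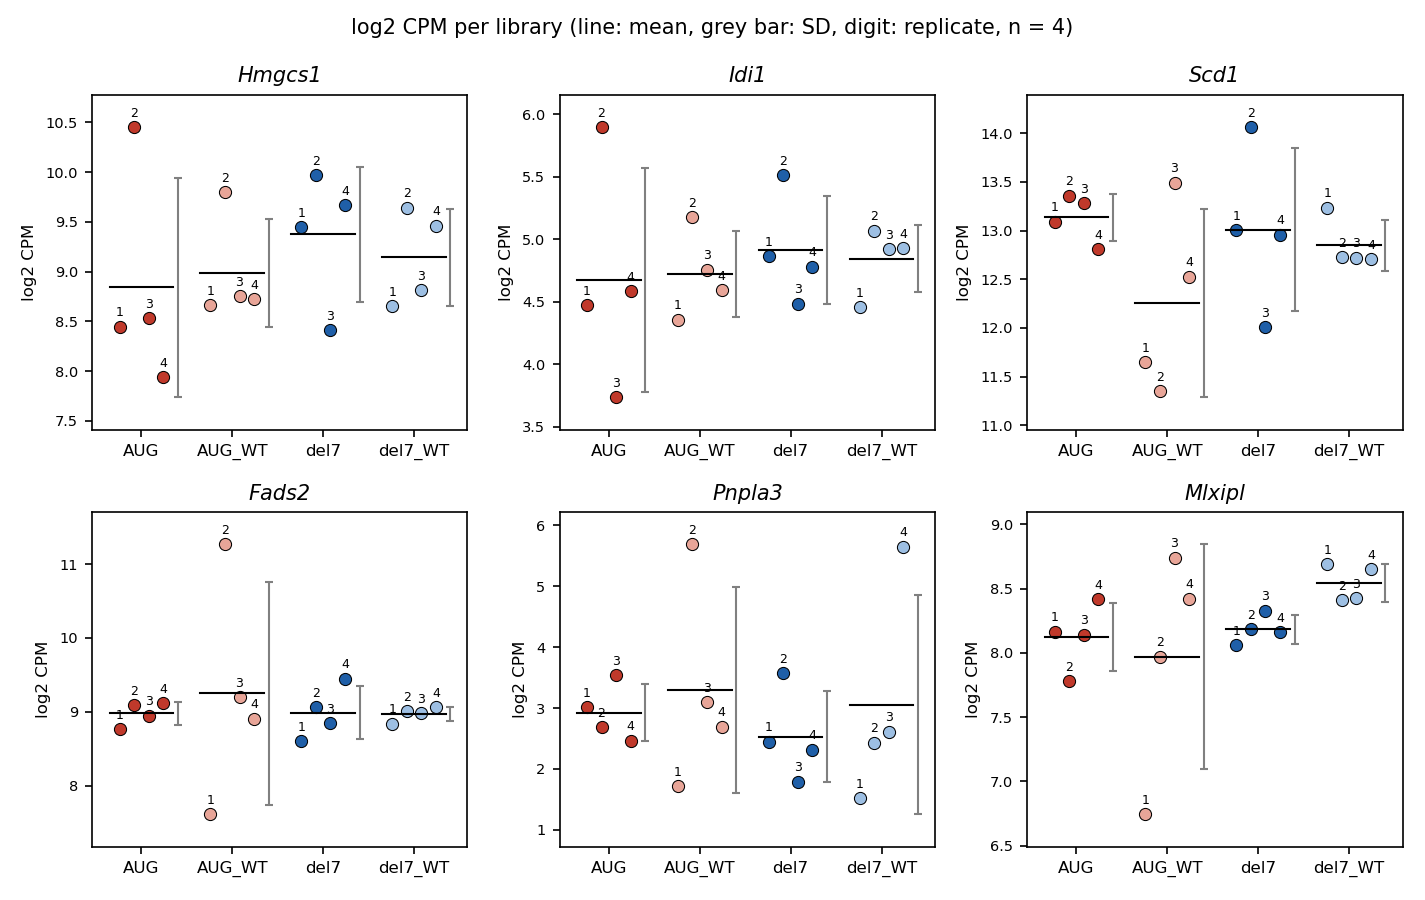
log2 CPM of 6 members in each library (points, labelled by replicate) with the group mean (line) and SD (grey bar), n = 4. Hmgcs1 and Idi1 are highest in AUG replicate 2, Fads2 in AUG_WT replicate 2, Pnpla3 in AUG_WT replicate 2 and del7_WT replicate 4, and the del7 points of Mlxipl all lie below those of del7_WT.

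Set against each other in AUG, the sterol arm had a median log2 fold change of 0.08, with 13 genes above and 7 below 0, and the fatty acid arm -0.04, with 8 above and 9 below. All tested genes had a median of -0.04, with 43.8% above 0. Single libraries set these directions. The log2 fold change turned sign without AUG replicate 2 in 12 of 37 members, 10 of them sterol genes, and without AUG_WT replicate 1 in 13 of 37. Without AUG replicate 2 the sterol median was -0.30, with 3 genes above and 17 below 0. At an unadjusted p under 0.05 there were 3 sterol genes, with 0 called. Without AUG_WT replicate 1 the sterol median was -0.06 and the fatty acid median -0.25, with 4 above and 13 below. Without AUG_WT replicate 3 the fatty acid median was instead 0.26, with 12 above and 5 below. At an unadjusted p under 0.05 the fatty acid genes numbered 2 without AUG_WT replicate 1 and 2 without AUG_WT replicate 3, with 0 called in either. The share of all genes at that cut-off in these fits is not given here.

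In del7 the sterol arm had a median of 0.07, with 15 above and 5 below 0, and the fatty acid arm -0.03, with 6 above and 11 below, beside 0.00 and 50.1% above 0 for all genes. Leaving out single libraries moved the sterol median between -0.11 and 0.19 and the fatty acid median between -0.18 and 0.09. The sign turned in 17 of 37 members without del7 replicate 2 and in 11 of 37 without del7_WT replicate 4. The 95% interval of the log2 fold change lay within 1 of 0 for 18 of 20 sterol genes in AUG and 18 of 20 in del7. It did so for 9 of 17 and 11 of 17 fatty acid genes, so most sterol genes, but fewer fatty acid genes, had intervals narrower than a 2-fold change either way.

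**Figure D4:**
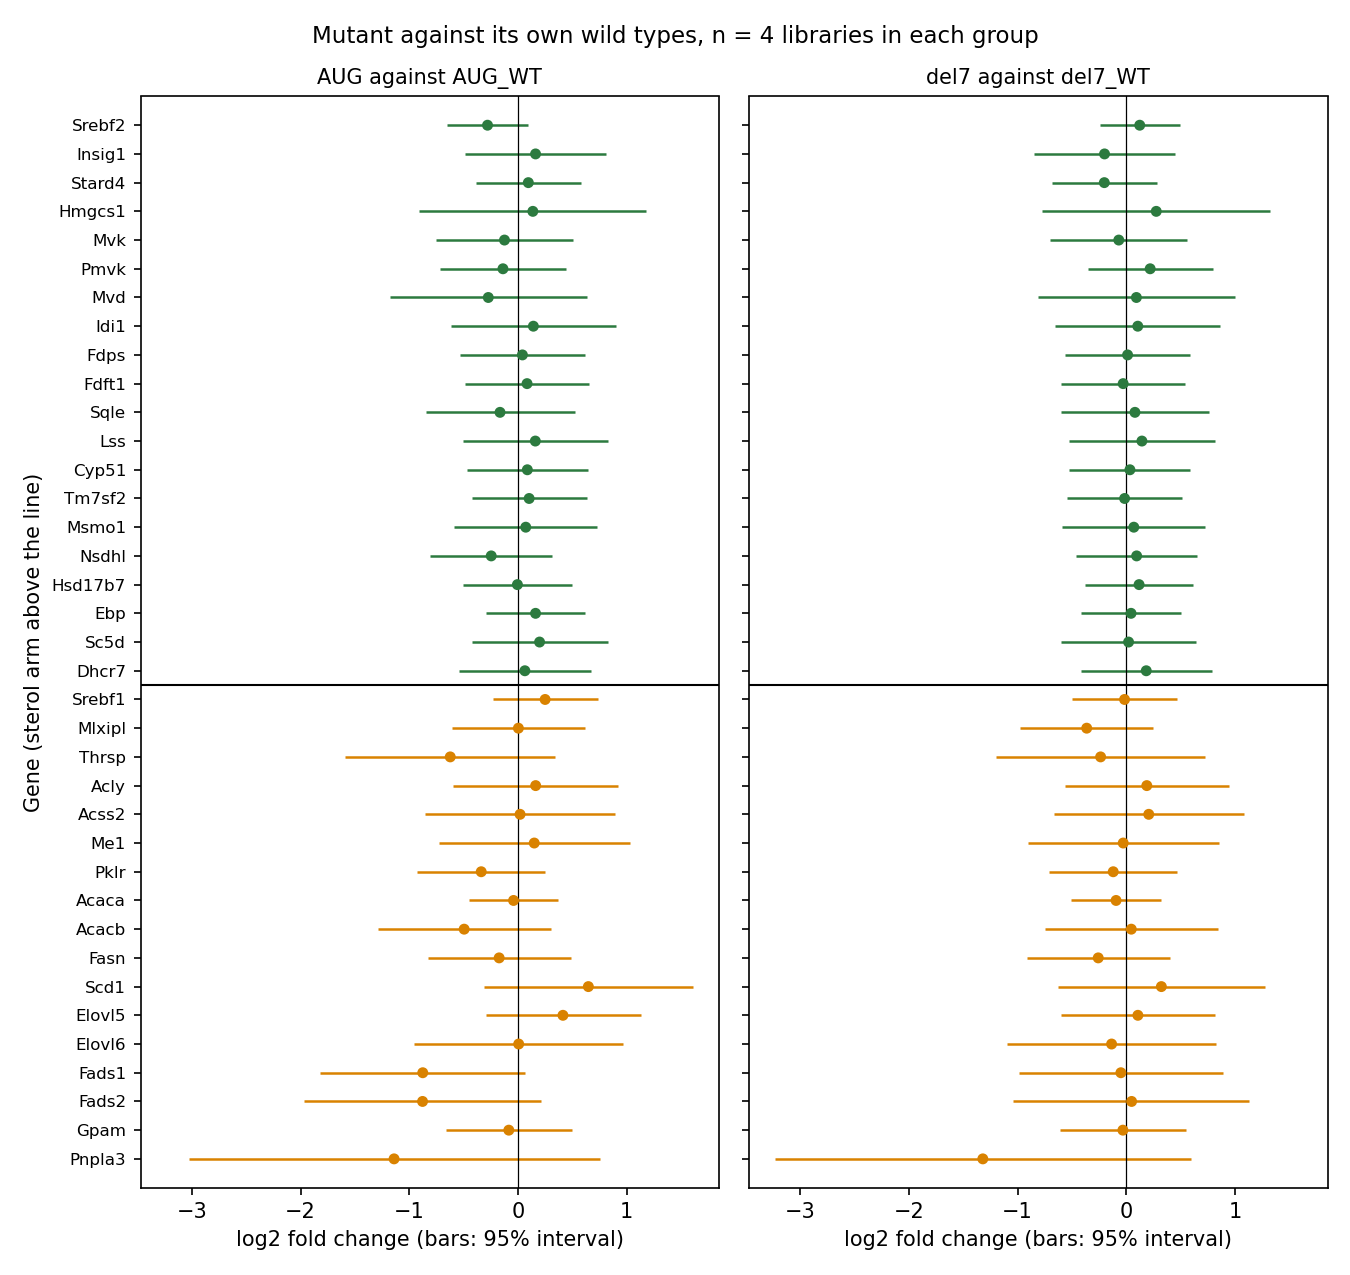
Fitted log2 fold change of each member with its 95% interval in AUG against AUG_WT (left) and del7 against del7_WT (right), n = 4 libraries in each group, with the sterol arm above the line. Every interval includes 0. Among the widest are those of Pnpla3, Fads1, Fads2, Thrsp, Elovl6 and Scd1 in the fatty acid arm and of Hmgcs1 in the sterol arm.

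For the difference between the mutant effects the median was 0.01 in the sterol arm and 0.05 in the fatty acid arm, beside -0.04 over all genes. With 1 library left out the fatty acid median ran from -0.22 (without del7_WT replicate 4) to 0.31 (without AUG_WT replicate 3). Without AUG replicate 2 the sterol value was -0.42, and Srebf2 was at -0.53 (SE 0.24, unadjusted p = 0.0441, edgeR adjusted p = 0.833). Between the wild types, AUG_WT against del7_WT, the sterol median was -0.14, with 5 above and 15 below 0, and the fatty acid median 0.09, with 11 above and 6 below, beside 0.03 over all genes. With 1 library left out, the fatty acid median ran from -0.19 (without AUG_WT replicate 3, 7 above and 10 below) to 0.335 (without del7_WT replicate 4, 14 above and 3 below), and it was 0.28 without AUG_WT replicate 1. The comparisons of AUG and of del7 with their wild types share no library, but the difference and the comparison of wild types reuse them.

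Other genes of the same pathways were read from the same fit. Of 30 further sterol genes, covering the processing of the Srebf factors, transport, esterification and bile acid synthesis, edgeR called 0 higher and 0 lower at an adjusted p under 0.05 in AUG, in del7, for the difference and between the wild types, beside 0.0277%, 0%, 0.00693% and 0.0347% of all genes. At an unadjusted p under 0.05 they numbered 1, 1, 1 and 4 of 30, beside 8.81%, 1.92%, 5.21% and 11.8% of all genes. Above 0 were 15 of 30 in AUG and 17 of 30 in del7. The smallest p in AUG was that of Gramd1b, an endoplasmic reticulum protein that takes up sterol from the plasma membrane, which stood at -1.14 on the log2 scale (SE 0.40, edgeR adjusted p = 0.561). It was at 28.0 CPM in AUG_WT replicate 1 and at 4.48 to 8.44 CPM in the other 15 libraries, and without that library it gave -0.29 (SE 0.19, edgeR adjusted p = 0.888). In del7 the smallest p was that of Mylip, a ubiquitin ligase that acts on lipoprotein receptors, at 0.45 (SE 0.19, edgeR adjusted p = 1).

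Of 31 further genes of fatty acid synthesis, sugar handling and triglyceride assembly, edgeR again called 0 higher and 0 lower in each comparison. Those at an unadjusted p under 0.05 numbered 0, 0, 1 and 0, beside 8.81%, 1.92%, 5.21% and 11.8% of all genes. In AUG 23 of 31 were above 0, with a median of 0.14, and in del7 12 of 31, with a median of -0.03. Without AUG_WT replicate 1 the AUG values were 16 of 31 and 0.00. The smallest p belonged to Pgd in AUG, at -0.38 (SE 0.22, edgeR adjusted p = 0.632), and to G6pdx in del7, at 0.74 (SE 0.41, edgeR adjusted p = 1). Without AUG_WT replicate 1 Pgd stood at -0.235 and without AUG_WT replicate 4 at -0.554. Both genes encode NADPH-making enzymes of the pentose phosphate pathway.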

How the data were processed

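Per the labels' protocols, total liver RNA was freed of ribosomal RNA and made into directional libraries. The submitters' processing notes name cutadapt 2.10, STAR 2.7.9a and the build GRCm39, and no annotation release was found in the sources used here. Whole-number counts per gene were deposited without normalization. The series table matched the reverse-strand column in all 16 samples, and 0 columns were unmatched. Unmapped reads (2.82% to 3.93%), multimapping reads (9.23% to 15.0%) and reads outside genes (21.8% to 35.0%) stayed out of library sizes. So did ambiguous reads, which overlap more than 1 gene (0.802% to 1.00%).

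The table was fitted whole with edgeR 4.0.16 (R 4.3.3) under TMM scaling and filterByExpr at a minimum count of 10, with 1 mean per group and 12 residual degrees of freedom, and p-values were two-sided. log2 CPM carried a prior count of 2. The fit was tested on simulated data. DESeq2 1.42.0, limma voom 3.58.1 and other alternatives are given below. GENCODE M21 (GRCm38) supplied symbols, overlaps and exon lengths, and blastn 2.17.0 pseudogene copies of at least 95% identity over 200 nucleotides. STAR gene counts use reads that align to 1 place, so copies can cost a gene reads.

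The members and lists were chosen with earlier results of these data known. Values in every sample are printed for both Srebf genes, for members past an unadjusted p of 0.05, for the 2 highest and 2 lowest fold changes of each arm in each mutant, and for members with over a 4-fold range. Others named singly were chosen after their values were seen. No 2 replicates agreed within sampling noise (smallest chi-square 10.7 per gene).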

Additional observations from a re-analysis of the deposited data

Results flagged for a closer look

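In 160 sets of 4 libraries (each member, each arm level and the sterol minus the fatty acid level, in each group), 13 held a library whose gap to its nearest neighbour was most of the whole range. Chance alone would flag about 1 in 20 such sets, which is 8 of 160, if the sets were independent and their values normally distributed. Members share libraries and were read as CPM without logarithms, so 13 beside 8 does not measure an excess over chance. All 13 were high libraries.

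In AUG replicate 2, Hmgcs1 was 1397 CPM beside 245.2 to 370.6 in the other AUG libraries, Lss 190.6 CPM beside 65.0 to 84.3, Sc5d 1137 CPM beside 655.2 to 720.1, and Srebf2 114.5 CPM beside 81.9 to 84.1. In AUG replicate 1, Pklr was 283.3 CPM beside 195.7 to 200.1.

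In AUG_WT replicate 2, Pnpla3 was 51.48 CPM beside 3.30 to 8.52 and Hmgcs1 888.3 CPM beside 405.8 to 431.3. In AUG_WT replicate 3, Fasn was 2779 CPM beside 1082 to 1241 and Acly 750.2 CPM beside 279.5 to 340.7.

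In del7_WT replicate 4, Pnpla3 was 50.17 CPM beside 2.87 to 6.10, Fasn 2320 CPM beside 1372 to 1464, and the fatty acid arm level 0.471 beside -0.143 to -0.103. In del7_WT replicate 1, Scd1 was 9649 CPM beside 6690.5 to 6781.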

How the results depend on the processing

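Members called stayed at 0 in all 97 values under alternatives. Over all 37 members the log2 fold change kept its sign in 846 of 925 alternative values in AUG and 848 of 925 in del7. These totals overstate stability, since settings that leave out a library of the other line can hardly turn a sign. Leaving out 1 library of the compared groups turned up to 13 of 37 members in AUG and up to 17 of 37 in del7. Over all genes, calls in AUG were 9 with DESeq2 (4 in the edgeR fit), and in del7 1 with DESeq2 (0). For the difference they were 6 with DESeq2, 2 with limma voom and 1 to 2 with single libraries left out (1). Between the wild types they were 3 with unstranded counts, 11 without the filter, 70 with DESeq2, 13 with only those groups fitted and 1 to 10 with single libraries left out (5). The main fit did not pair samples by replicate number. Correlations of deviations between samples with the same number ran from -0.157 to 0.351 for AUG and from 0.0919 to 0.283 for del7, all above 0 in del7. In del7 and del7_WT, 6 of 8 samples correlated best with their own number, in AUG and AUG_WT 2 of 8. Whether the number marks a pairing in the del7 line was not tested. With the replicate block, calls were 2 for the difference and 1 between the wild types. The sterol median was then -0.0138 in AUG and 0.0449 in del7. The block turned Hmgcs1 in AUG to -0.0514, Acss2 in AUG to -0.0473, Sc5d in del7 to -0.00351 and Me1 in del7 to 0.0329.

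With single libraries left out, the median of the difference ran from -0.418 to 0.165 in the sterol arm and from -0.217 to 0.312 in the fatty acid arm, and the sterol median minus the fatty acid median from -0.522 to 0.152. The log2 fold changes that turned among members printed in every sample ran, in AUG, from -0.738 to 0.504 for Hmgcs1, -0.329 to 0.0129 for Pmvk, -0.436 to 0.388 for Idi1, -0.0287 to 0.34 for Sc5d, -0.0828 to 0.351 for Insig1, -0.0876 to 0.292 for Stard4, -0.183 to 0.363 for Acss2, -0.284 to 0.87 for Elovl6, -1.16 to 0.0309 for Fads1, -1.19 to 0.272 for Fads2, -0.174 to 0.387 for Me1, -0.251 to 0.283 for Mlxipl and -1.46 to 0.394 for Pnpla3. In del7 they ran from -0.1 to 0.331 for Mvd, -0.139 to 0.232 for Idi1, -0.177 to 0.141 for Sc5d, -0.332 to 0.0589 for Insig1, -0.146 to 0.0648 for Srebf1, -0.355 to 0.446 for Acss2, -0.143 to 0.57 for Scd1, -0.0257 to 0.264 for Elovl5, -0.301 to 0.0726 for Elovl6, -0.181 to 0.0379 for Fads1, -0.131 to 0.165 for Fads2, -0.193 to 0.216 for Me1, -0.487 to 0.073 for Thrsp and -1.8 to 0.45 for Pnpla3. Under limma voom Hmgcs1 was -0.121 and Idi1 -0.0519 in AUG, and Sc5d -0.0123 and Me1 0.0138 in del7. Against all 8 wild-type libraries Insig1 was -0.0174 and Mlxipl -0.216 in AUG, and Fads2 -0.463 in del7. Beyond the libraries left out, the cause of these changes was not tested. A fit of only the groups compared is the same fit for the difference and was not run there. Counting error at a member's lowest count (SD of 0.00870 to 0.240 on the log2 scale) was below its spread within groups (0.252 to 1.29) in 37 of 37 members.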
